A study of Mus musculus with 10 samples.

Results

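The NF-κB subunits and inhibitors are 10 genes, chosen by name as rows of the count files: the subunits Nfkb1, Nfkb2, Rel, Rela and Relb, and the inhibitors Nfkbia, Nfkbib, Nfkbid, Nfkbiz and Tnfaip3. All 10 were among the 55809 gene rows and among the 16363 genes tested. Poly(A) RNA of Treg cells from spleen and lymph nodes was sequenced in bulk from Foxp3-AID mice, in which the Foxp3 gene itself makes a fusion of Foxp3 with an auxin-inducible degron (AID), a ZsGreen reporter and Cre recombinase. Both groups carried this allele and received the auxin analog 5-ph-IAA for 14 days. The 6 R26-TIR1(F74G) libraries came from mice whose ROSA26 locus holds the mutated plant ubiquitin ligase TIR1(F74G) with mCherry behind a loxP-flanked STOP, so that Cre made from the Foxp3 allele switches the ligase on and the drug then triggers degradation of the Foxp3 protein. The 4 R26-WT libraries came from mice without the ligase. The comparison asks how transcripts of Treg cells differ when Foxp3 protein is degraded. The ligase and mCherry also differ between the groups, and none of the 10 libraries is untreated. Effects of their presence and of Foxp3 loss therefore cannot be told apart. Age is not in the labels. A folder named in the file headers reads male, and since Foxp3 lies on the X chromosome all Treg cells of a male would carry the degron allele. The paper describes a mild rise of inflammation in such males once Foxp3 is degraded. Changes inside the cell and responses to its surroundings therefore cannot be told apart. The study's general sorting scheme adds mCherry to the gate for cells with TIR1, and whether it was used for these libraries is not stated. Libraries are titled as numbered replicates, without naming a mouse, and p-values measure the spread between these 10 samples.

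NF-κB is a family of dimeric transcription factors built from 5 subunits, held inactive in the cytoplasm by IκB proteins until receptor signals lead to IκB degradation. In Treg cells it acts downstream of the T cell receptor, CD28 and receptors of the TNF family, and c-Rel, the product of Rel, takes part in Foxp3 induction during thymic development. Several of the inhibitors are themselves transcribed in response to NF-κB and close feedback loops.

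Between 24158699 and 54795718 read pairs were counted per library. The smallest raw count of any of the 10 genes in any library was 945, for Rel in R26-TIR1(F74G) replicate 8, a counting error of 3.25% before any amplification error. The Foxp3 transcript, which the degron does not target, ranged from 6816 to 11779 normalized counts in R26-WT and from 6778 to 16059 in R26-TIR1(F74G), so it does not check the protein. The 7 Treg and CD4 T cell markers had summed normalized counts of 192045 to 209751 in R26-WT and 185872 to 197422 in R26-TIR1(F74G). Summed B cell markers (7 genes) lay at 837 to 1378 and 706 to 1184, myeloid markers (9 genes, 3 of them at 0 in all libraries) at 2577 to 3828 and 2379 to 3414, and CD8 and NK cell markers (7 genes, 1 at 0) at 1346 to 1952 and 1411 to 1798. Of the genes on these 3 lists with enough counts to be tested (2, 3 and 6), Eomes was higher in R26-TIR1(F74G), by 1.47 on the log2 scale (SE 0.23), with an adjusted p of 4.54e-08 in DESeq2 and 0.0161 in edgeR. No other passed either test. A smaller share of cells with a transcript and less of it per cell cannot be told apart in bulk RNA.

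The sequence just upstream of the transcription start was examined because IκB genes are known NF-κB targets. The motifs GGGNNTTTCC and GGGNNTTCCC, which are written forms of the κB site, were searched on both strands in the 300 bases upstream of the canonical transcript start of 21751 protein-coding genes (GRCm39). They occurred in 1.70% and 1.77% of all windows, and either of them in 3.31%. Of the 10 genes, Nfkbia and Relb had a match to both, and the other 8 had none in this window. The same windows are shown for Nfkbia and Relb, and for Tnfrsf9, a target gene whose counts differed between the groups as described further on. They run 5′ to 3′ on the gene's strand and end at the base before the start, with every base of a match in capitals. Both matches of Nfkbia lie on the opposite strand. In Relb and in Tnfrsf9 the matches to the 2 motifs overlap by all but 1 base and appear as 1 block of capitals.
Nfkbia (chr12:55539433-55539732, minus strand): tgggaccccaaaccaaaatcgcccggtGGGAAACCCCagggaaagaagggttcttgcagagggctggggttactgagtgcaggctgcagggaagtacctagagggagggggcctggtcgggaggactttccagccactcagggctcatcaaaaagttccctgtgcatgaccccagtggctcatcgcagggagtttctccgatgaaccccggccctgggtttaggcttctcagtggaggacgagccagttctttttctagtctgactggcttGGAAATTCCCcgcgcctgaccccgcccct
Relb (chr7:19363424-19363723, minus strand): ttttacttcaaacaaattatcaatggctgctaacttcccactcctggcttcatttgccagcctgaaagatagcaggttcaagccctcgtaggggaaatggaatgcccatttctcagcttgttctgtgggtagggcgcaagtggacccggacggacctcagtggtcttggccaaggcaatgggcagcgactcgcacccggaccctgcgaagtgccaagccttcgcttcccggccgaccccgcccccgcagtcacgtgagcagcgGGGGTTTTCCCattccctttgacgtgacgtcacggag
Tnfrsf9 (chr4:151012156-151012455, plus strand): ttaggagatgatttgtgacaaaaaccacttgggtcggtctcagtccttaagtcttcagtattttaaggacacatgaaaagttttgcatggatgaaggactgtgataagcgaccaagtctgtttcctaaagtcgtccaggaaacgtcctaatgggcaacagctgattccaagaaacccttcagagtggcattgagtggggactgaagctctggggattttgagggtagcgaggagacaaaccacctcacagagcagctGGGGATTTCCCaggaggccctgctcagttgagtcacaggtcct

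The match nearest to the start spans 29 to 20 bases upstream in Nfkbia, and the near matches begin 37 bases upstream in Relb and 43 in Tnfrsf9. A match is a stretch of letters and says nothing on binding. A looser form, GGGNNNNNCC, was in 51.4% of all windows and in 8 of the 10 genes. Of 410 tested genes with either strict motif, 6 (1.46%) passed the test between the groups, beside 1.74% of all genes tested, and their median log2 fold change was 0.0003.

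Levels were compared between genes per exon length, as TPM (counts per exon base, scaled to the same total in every library). Nfkbia, the inhibitor that binds and retains NF-κB dimers, was the highest at 1065 ± 112 TPM (SD, n = 10 libraries), and Rela, the main activating subunit, followed at 282 ± 25.5 TPM. Nfkbid, a nuclear IκB protein linked to Foxp3 induction, stood at 175 ± 12.4 TPM and Nfkbib, a second cytoplasmic IκB, at 154 ± 15.0 TPM. Next came Nfkb2 (89.6 ± 20.7 TPM), Relb (88.3 ± 5.20 TPM) and Nfkbiz (88.1 ± 22.4 TPM), then Tnfaip3 (46.4 ± 23.9 TPM), Nfkb1 (25.9 ± 3.08 TPM) and Rel (18.4 ± 6.41 TPM). The length is that of all annotated exons of a gene, and the transcripts present can be shorter. Nfkb1, with 12061 exon bases, had a mean of 4527 normalized counts, and Nfkbib, with 2169, had 4902. The low place of Nfkb1 therefore rests on the annotated length. Lengths of the transcripts present were not tested.

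All neighbours in this order were compared within libraries by exact sign-flip permutation tests (two-sided, 9 tests, smallest possible p 0.00195). The order came from the same 10 libraries, so the pairs and their direction were set by the values tested. An error in exon length shared by all libraries would not show in these tests. Nfkbia exceeded Rela in all 10 libraries, by 1.92 on the log2 scale (adjusted p 0.0044, exact test). Nfkb2, Relb and Nfkbiz could not be ordered: Nfkb2 was above Relb in 5 of 10 libraries (exact adjusted p 0.916) and Relb above Nfkbiz in 5 of 10 (exact adjusted p 0.776). The other 6 steps passed, with exact adjusted p from 0.0044 to 0.0427, the weakest being Nfkbid above Nfkbib in 8 of 10 libraries. Among the 5 subunits Rela made up 55.7% of the summed TPM in R26-WT and 56.3% in R26-TIR1(F74G), and Rel 3.72% and 3.47%. Nfkbia made up 71.2% and 68.4% of the summed TPM of the 5 inhibitors. Exons of other genes overlap 20.5% of the exon bases of Nfkb2 (4833438C02Rik and Psd) and 16.4% of those of Nfkbib (Ccer2 and Sirt2), and read pairs shared by 2 genes were not counted. Over the exon bases that no other gene covers, Nfkb2 stood at 113 TPM and Nfkbib at 184 TPM, which puts Nfkbib above Nfkbid, and Nfkb2 above Relb and Nfkbiz. The order was not tested again on this scale.

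**Figure D1:**
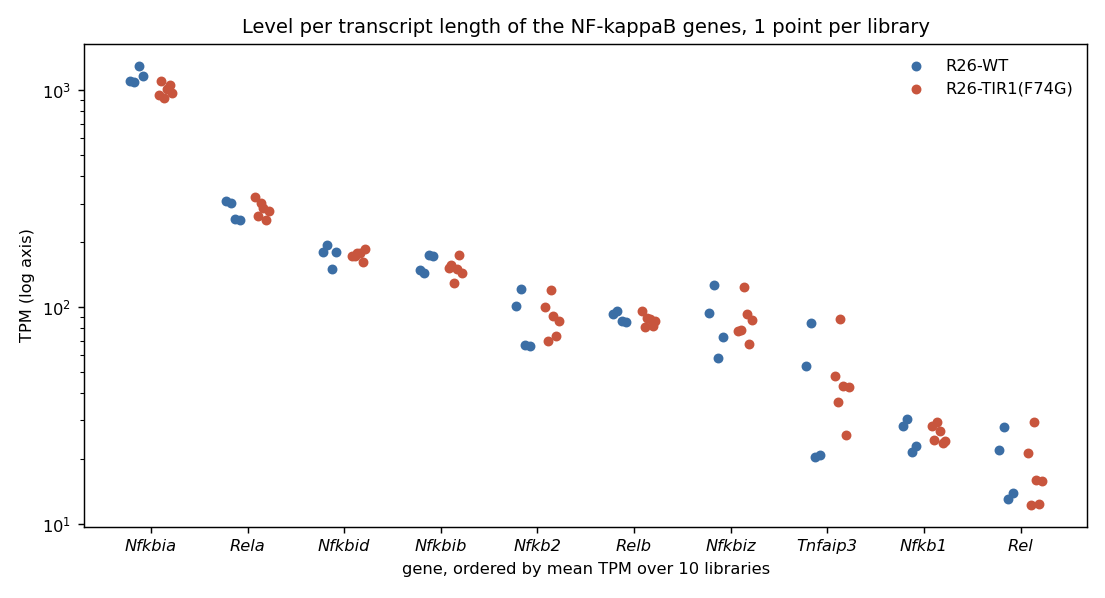
TPM (log axis) of each NF-κB gene, ordered by the mean over 10 libraries, with 1 point per library in blue for R26-WT and red for R26-TIR1(F74G). Nfkbia stands apart at the top with a mean of 1065 TPM, Rel is lowest at 18.4 TPM, and the groups lie on top of each other for most genes.

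None of the 10 genes passed the test between the groups, beside 1.74% of all genes tested (284 of 16363). The edgeR quasi-likelihood test also called 0 of the 10, beside 0.373% of all genes. At an unadjusted p under 0.05, DESeq2 had 0 of the 10 and edgeR 1, Nfkbia (p 0.0456), beside 6.86% and 6.21% of all genes. Log2 fold changes of R26-TIR1(F74G) against R26-WT ran from -0.28 to 0.05, with 9 of 10 below 0, beside 8161 of 16363 genes tested. The median of the 10 was -0.05, beside 0.0006 over all genes tested. The count below 0 depended on 1 library. Without R26-WT replicate 2, Nfkb1 (0.018), Nfkb2 (0.11), Rel (0.034) and Nfkbiz (0.14) lay above 0, together with Tnfaip3 (0.51). For none of the 10 were the groups' normalized counts free of overlap, beside 2.37% of all genes.

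**Figure D2:**
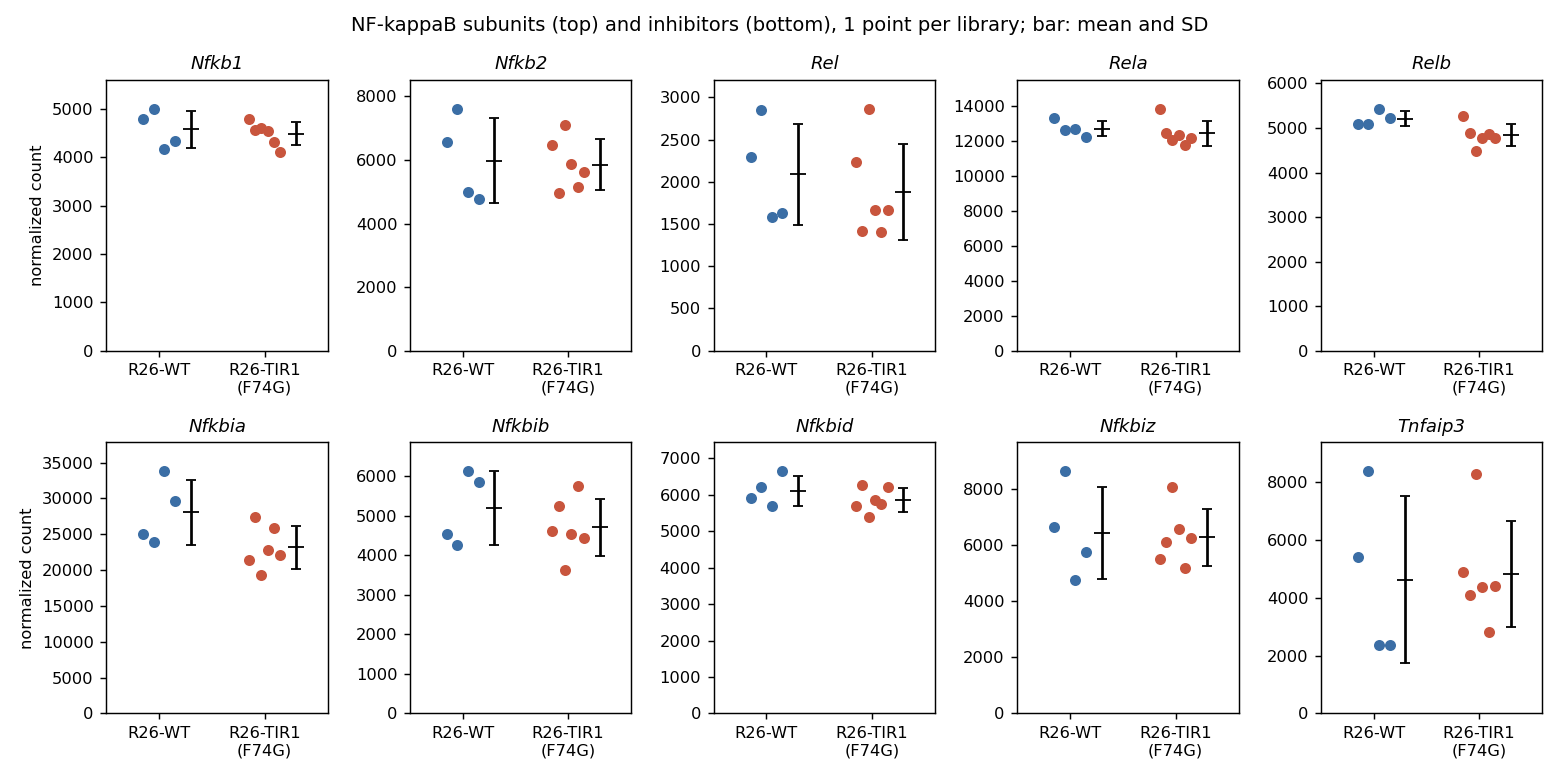
Normalized counts of the 5 subunits (top row) and 5 inhibitors (bottom row), 1 point per library, with mean and SD beside each group and every axis starting at 0. The groups overlap in all 10 panels, Relb and Rela are tight, and Tnfaip3 spans from 2365 to 8376.

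Of the subunits, Rela lies on chromosome 19 (5687511 to 5698158, plus strand, GRCm39). Its normalized counts were 13332, 12657, 12697 and 12225 in the R26-WT replicates 1 to 4, and from 11796 to 13859 with a median of 12249 in R26-TIR1(F74G). The groups overlapped throughout, and the log2 fold change of -0.03 had a 95% interval of -0.19 to 0.12.

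Relb, which pairs with the Nfkb2 product in the alternative pathway, lies on chromosome 7 (19340142 to 19363363, minus strand). It had 5079, 5084, 5432 and 5229 normalized counts in R26-WT, and 4481 to 5264 with a median of 4825 in R26-TIR1(F74G). Of the R26-TIR1(F74G) libraries, 5 of 6 lay below every R26-WT library, and replicate 5 lay among them. The log2 fold change was -0.10 (SE 0.076, interval -0.25 to 0.04, DESeq2 adjusted p 0.99996). An exact permutation test over the 210 ways to split these 10 values gave an unadjusted two-sided p of 0.0381, the one value under 0.05 among the 10 genes tested in this way. The test was run on the 10 genes only, so the share of all genes under 0.05 is not known.

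Nfkb1 encodes the precursor of a DNA-binding subunit that pairs with the Rela and Rel products, and Nfkb2 the precursor of the corresponding partner of the Relb product. Nfkb1 (chromosome 3, 135290416 to 135397308) had 4794, 5006, 4182 and 4336 normalized counts in R26-WT and 4119 to 4799, median 4552, in R26-TIR1(F74G), a log2 fold change of -0.03 (interval -0.21 to 0.15). Nfkb2 (chromosome 19, 46292759 to 46300824) had 6559, 7611, 4978 and 4774 in R26-WT and 4946 to 7108, median 5737, in R26-TIR1(F74G), a log2 fold change of -0.03 (interval -0.36 to 0.30). In both genes R26-WT replicates 1 and 2 were above replicates 3 and 4.

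Rel (chromosome 11, 23686847 to 23720970) showed the same division more sharply, with 2297 and 2845 normalized counts in R26-WT replicates 1 and 2 against 1579 and 1632 in replicates 3 and 4. In R26-TIR1(F74G) it ranged from 1411 to 2865 with a median of 1671. The log2 fold change of -0.15 (SE 0.24) had an interval from -0.62 to 0.32, wider than that of any other subunit.

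Among the inhibitors, Nfkbia (chromosome 12, 55536195 to 55539432, minus strand) had the fold change farthest from 0. Normalized counts were 25001, 23891, 33765 and 29577 in R26-WT and 19367 to 27357 with a median of 22480 in R26-TIR1(F74G). The 2 lowest R26-WT libraries lay within the range of the other group, and 4 of 6 R26-TIR1(F74G) libraries were below all 4 of R26-WT. The log2 fold change was -0.28 (SE 0.14, interval -0.56 to 0.0047) and did not pass (DESeq2 p 0.0540, adjusted p 0.764, edgeR adjusted p 0.778). The exact permutation p was 0.0762, where 0.00476 is the smallest that 4 against 6 libraries allow.

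The other 2 classical or nuclear IκB genes on chromosome 7 differed less. Nfkbib (28457676 to 28466937) had 4547, 4265, 6120 and 5864 normalized counts in R26-WT and 3626 to 5755, median 4583, in R26-TIR1(F74G), with a log2 fold change of -0.14 (interval -0.46 to 0.17). Nfkbid (30121157 to 30128171) had 5917, 6224, 5691 and 6642 in R26-WT and 5391 to 6269, median 5804, in R26-TIR1(F74G), with a log2 fold change of -0.06 (interval -0.23 to 0.11). Here R26-WT replicates 3 and 4 were the higher ones for Nfkbib, the reverse of Rel.

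Nfkbiz, a nuclear IκB that acts as a coactivator (chromosome 16, 55631738 to 55659262), had 6649, 8640, 4752 and 5755 normalized counts in R26-WT and 5178 to 8096, median 6188, in R26-TIR1(F74G). Its log2 fold change was -0.04 (interval -0.40 to 0.32). Tnfaip3, a ubiquitin-editing enzyme that shuts off signaling to the IκB kinase complex (chromosome 10, 18876658 to 18891405), had 5426, 8376, 2376 and 2365 in R26-WT. It ranged from 2830 to 8280 with a median of 4387 in R26-TIR1(F74G). The lowest and the highest value of Tnfaip3 in the study were both R26-WT libraries, and its log2 fold change of 0.05 (SE 0.36) had the widest interval of the 10, from -0.64 to 0.75.

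**Figure D3:**
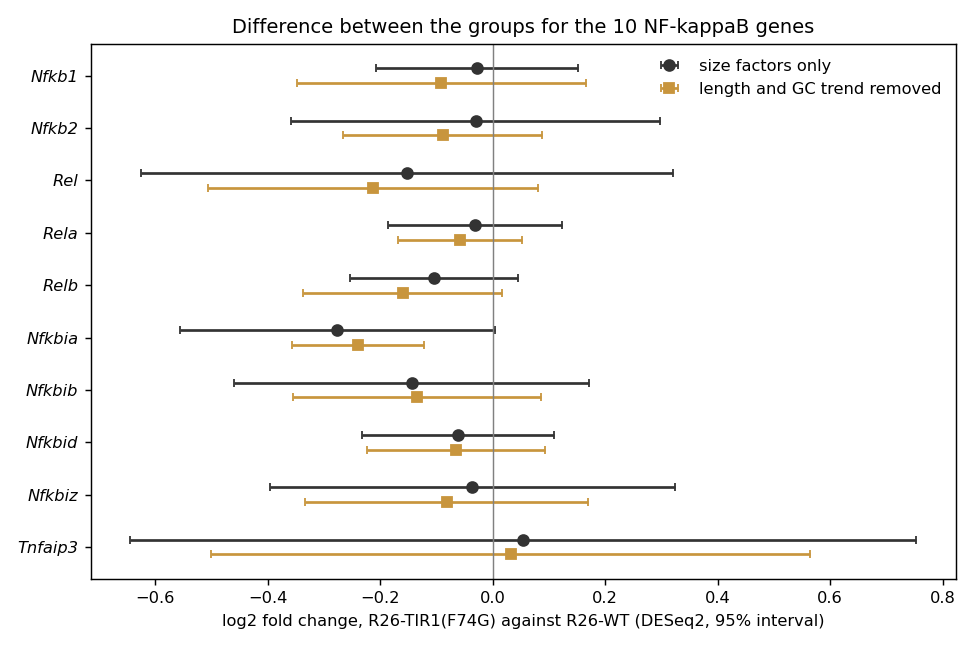
Log2 fold change of R26-TIR1(F74G) against R26-WT with 95% intervals for the 10 genes, by DESeq2 with size factors only (black circles) and with the length and GC trends of the libraries removed (ochre squares). Intervals span 0 for every gene in black, and in ochre the interval of Nfkbia (-0.24, SE 0.060) lies below 0.

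The genes differed widely in how far libraries of 1 group lay apart. The SD within groups on the log2 scale was 0.065 for Relb, smaller than in all but 0.807% of the genes tested, and 0.072 for Rela (percentile 1.31). Nfkbid (percentile 3.07) and Nfkb1 (4.31) were also tight. Nfkbia (25.5), Nfkbib (35.1), Nfkb2 (38.0) and Nfkbiz (46.9) were intermediate, Rel stood at percentile 66.0, and Tnfaip3, with an SD of 0.68, at percentile 89.0.

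Libraries also differed in how long and short transcripts were represented. A length index was computed for each library as the median deviation from the mean library of genes with at least 6354 exon bases minus that of genes with at most 2258, on the log2 scale. It was 0.20, 0.46, -0.58 and -0.42 in R26-WT replicates 1 to 4 and ran from -0.34 to 0.65 in R26-TIR1(F74G). The relation of each NF-κB gene to this index and to a like index of GC content was examined after the counts had been seen (20 relations, n = 10 libraries, permutation tests with Benjamini-Hochberg adjustment).

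Tnfaip3, with 7226 exon bases, rose with the index (Pearson r 0.97, permutation p 1e-05, the smallest possible, adjusted p 2.0e-04, Spearman rho 0.96, p 3e-05). Without the 2 libraries farthest from the median index, r was 0.94, and within the 6 R26-TIR1(F74G) libraries it was 0.95 (exact p 0.00278). Nfkb2 (r 0.95), Rel (r 0.89) and Nfkbiz (r 0.87) followed the index upward as well, with permutation adjusted p from 2.67e-04 to 0.00295. In the opposite direction went Nfkbib, with 2169 exon bases (r -0.97, rho -0.92, permutation adjusted p 2.67e-04), and Nfkbia, with 1610 (r -0.86, rho -0.79, permutation adjusted p 0.00351). For Nfkb1, Rela, Relb and Nfkbid r lay between -0.53 and 0.67 and no permutation adjusted p for the length index was under 0.05, although the 12061 exon bases of Nfkb1 are the most of the 10. For the GC index 7 of the 10 genes passed, with negative r for 5 (Nfkb1, Nfkb2, Rel, Nfkbiz and Tnfaip3) and positive r for 2 (Nfkbia and Nfkbib). The weakest of these was Nfkb1 (r -0.68, permutation adjusted p 0.0469, r -0.34 without the 2 libraries farthest from the median index). The share of all genes that pass for either index was not computed, so the counts cannot be called particular to the NF-κB genes.

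**Figure D4:**
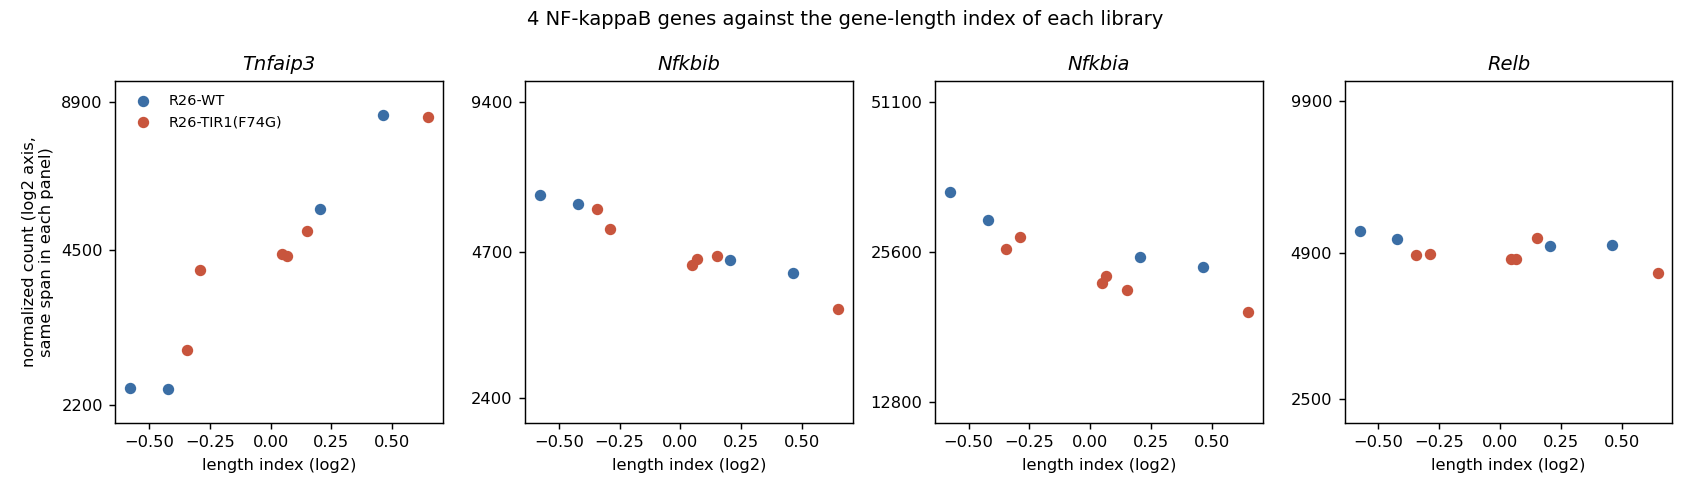
Normalized counts (log2 axis of equal span in each panel) of 4 NF-κB genes against the length index of each library, blue for R26-WT and red for R26-TIR1(F74G). Tnfaip3 climbs along the index (r 0.97), Nfkbib and Nfkbia descend (r -0.97 and -0.86), and the red points of Nfkbia lie under the blue points at a like index.

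With each library's smooth trend on exon length and GC content removed, the normalized counts of Nfkbia were 27105, 27220, 29171 and 26844 in R26-WT. They ran from 22386 to 25525 in R26-TIR1(F74G), and the groups no longer overlapped, as in 2.83% of all genes under this setting. The SD within groups fell from 0.20 to 0.065. The log2 fold change was -0.24 (SE 0.060), with a DESeq2 adjusted p of 0.0045, while edgeR on the same offsets gave an adjusted p of 0.177 and called 0.122% of all genes lower. Nfkbia was then 1 of 10 genes called by DESeq2, beside 389 of 16363 genes called in either direction and 0.684% called lower. With 1 surrogate variable in the model in place of the trend, Nfkbia (log2 fold change -0.20, DESeq2 adjusted p 0.00283) and Rel (-0.30, DESeq2 adjusted p 0.00567) were called lower. Over all genes this model called 743 of 16363 in either direction and 1.68% lower. The call on Nfkbia therefore depends on how the differences between libraries are modelled.

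The trend did not describe all 10 genes equally. The SD within groups also fell for Nfkb2 (from 0.25 to 0.12), Rel (0.40 to 0.23) and Tnfaip3 (0.68 to 0.49), and it increased for Nfkb1 (0.096 to 0.20) and Relb (0.065 to 0.12). Relb had a log2 fold change of -0.16 (SE 0.090) with the trend removed and was not called (DESeq2 adjusted p 0.705).

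Pairs of the 10 genes were compared across the 10 libraries, which share the length trend just described. Of 45 pairs, 14 passed a permutation test with adjustment over the pairs, 9 with a positive and 5 with a negative r. Nfkb2 and Tnfaip3 varied together (r 0.93, rho 0.95, permutation p 7e-05, adjusted p 0.00158, r 0.85 without the 2 libraries farthest from the median of Nfkb2), as did Nfkb2 and Rel (r 0.94, rho 0.88, permutation adjusted p 0.0021). Nfkbib and Tnfaip3 varied in opposite directions (r -0.94, rho -0.92, permutation adjusted p 0.00135). No pair with Rela, Relb or Nfkbid passed. With 8 libraries, or within the 6 R26-TIR1(F74G) libraries, 0 of 45 passed the exact tests, although 6 libraries allow no p under 0.00139 and can hardly pass over 45 pairs. Within those 6 the r of Nfkb2 was 0.98 with Rel and 0.86 with Tnfaip3, and that of Nfkbib with Tnfaip3 was -0.95. With the length and GC trend removed 4 pairs passed, of which only the pair of Nfkbib and Tnfaip3 (r -0.84, permutation adjusted p 0.0271) was among the 14. The others, by permutation adjusted p, were Relb with Nfkbib (r 0.95, 9.0e-04), Nfkb1 with Nfkbib (r 0.92, 0.00405) and Nfkb1 with Relb (r 0.86, 0.0229). Under this setting the SD within groups of Nfkb1 and Relb had increased. Of 50 relations to the mean log2 level of immediate early, activated Treg, resting T cell, B cell and myeloid genes, 0 passed (smallest permutation adjusted p 0.489), and 3 had an unadjusted p under 0.05.

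The genes most like 3 of the 10 in pattern were sought among 12434 genes over 10 libraries. For Nfkbia they were Rps27 (r 0.98), Trbv3 (r 0.98) and Trbv14 (r 0.97), with 1043, 455 and 368 exon bases against 1610 in Nfkbia. For Relb, with 3885 exon bases, they were Pfkl, Tmem38a and Tada2a (r 0.90 to 0.91), with 6675, 2142 and 2974. For Nfkbib, with 2169, they were Casp6, Gm14269 and Mfsd5 (r 0.99 to 1.00), with 5584, 306 and 1754.

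Other genes of the pathway were taken from 3 lists from general knowledge. Of 15 further inhibitors and regulators, 0 were called by DESeq2 or by edgeR, beside 1.74% and 0.373% of all genes. At an unadjusted p under 0.05 there was 1 by each tool, beside 6.86% and 6.21% of all genes, and the median log2 fold change of the 15 was 0.02. That gene was N4bp1, a suppressor of NF-κB signaling, with 1378, 1475, 1059 and 1195 normalized counts in R26-WT and 1406 to 1854 (median 1597) in R26-TIR1(F74G). Its log2 fold change was 0.34 (SE 0.13, DESeq2 adjusted p 0.257). Tnip2 and Tnip1, both partners of the Tnfaip3 product, had log2 fold changes of 0.26 and -0.13 (DESeq2 adjusted p 0.913 and 0.99996). With 1 surrogate variable DESeq2 called N4bp1 higher (0.30, adjusted p 0.0090) and Tnip1 lower (-0.16, adjusted p 0.0175), beside 743 of 16363 genes called. Nfkbie and Bcl3, 2 more IκB family genes, stood at -0.08 and 0.02.

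Of 26 kinases and adaptors upstream of NF-κB, 0 were called by either tool (1.74% and 0.373% of all genes). At an unadjusted p under 0.05 there was again 1 by each, where 6.86% and 6.21% of all genes lay, and the median log2 fold change was 0.05. Traf2, an adaptor of TNF family receptors, had 5180, 4788, 5266 and 5427 normalized counts in R26-WT and 4153 to 4864 (median 4541) in R26-TIR1(F74G), where replicate 6 alone reached the R26-WT range. The log2 fold change was -0.20 (SE 0.083, DESeq2 adjusted p 0.370). With 1 surrogate variable DESeq2 called Traf2 lower (-0.18, adjusted p 0.00627), beside 743 of 16363 genes called. Tab2, an adaptor of the kinase TAK1, and Rbck1, a subunit of the linear ubiquitin ligase, had values of -0.18 and 0.14 (DESeq2 adjusted p 0.99996 for both). The IκB kinase genes Chuk and Ikbkb lay at -0.03 and 0.0038.

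Target genes of NF-κB were measured for 22 of 25 listed. DESeq2 called 2 of the 22, beside 1.74% of all genes called in either direction, and edgeR called 0, beside 0.373%. Both were lower in R26-TIR1(F74G), and DESeq2 called 0.336% of all genes lower. At an unadjusted p under 0.05 there were 5 by DESeq2 and 6 by edgeR, beside 6.86% and 6.21% of all genes tested. The median log2 fold change of the 22 was -0.08. Of these genes, 5 had groups that did not overlap, beside 2.37% of all genes: Tnfrsf9, Junb, Ccl5 and Traf1, each lower, and Bcl2a1d, higher. Ccl5, Traf1 and Bcl2a1d were not called and are named here after their values were seen. With DESeq2, Bcl2a1d was called with the trend removed, with the surrogate variable, and when either R26-WT replicate 3 or replicate 7 of R26-TIR1(F74G) was left out, and Traf1 with the surrogate variable. The value of Bcl2a1d (0.82 on the log2 scale, SE 0.25, adjusted p 0.0580 by DESeq2) is uncertain, since this gene has near-identical copies and how their reads were assigned was not tested.

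Tnfrsf9, a costimulatory receptor of the TNF receptor family that activates NF-κB and marks activated Treg cells, had 7410, 7670, 8610 and 7247 normalized counts in R26-WT. In R26-TIR1(F74G) the values ran from 4861 to 6095 with a median of 5592, below all of R26-WT. The log2 fold change was -0.49 (SE 0.11, DESeq2 adjusted p 5.65e-04), and edgeR gave an adjusted p of 0.0510. With the trend removed the value was again -0.49, and both tools called it (DESeq2 adjusted p 9.84e-06, edgeR adjusted p 0.0208). With limma voom and no trend removed it was not called (adjusted p 0.0564). It is 1 of 10 activated Treg markers, of which 3 had a log2 fold change below 0 and the median was 0.28. DESeq2 called 2 of these 10, Tnfrsf9 and, in the other direction, Tigit (1.73, SE 0.45, adjusted p 0.0102), beside 1.74% of all genes, and edgeR called 0.

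Junb, an AP-1 subunit, had 68015, 40255, 63221 and 50328 normalized counts in R26-WT and 28835 to 38778 with a median of 34960 in R26-TIR1(F74G). The groups did not overlap, with R26-WT replicate 2 close to the other group. Its log2 fold change of -0.70 (SE 0.17) passed in DESeq2 (adjusted p 0.00279) and not in edgeR (adjusted p 0.0673). Without R26-WT replicate 1 the DESeq2 adjusted p was 0.0519. It was also called by limma voom (adjusted p 0.0396) and, with the trend removed, by edgeR (adjusted p 0.0362). Of 12 immediate early and stress genes DESeq2 called 2, beside 1.74% of all genes called in either direction and 0.336% called lower. Both were lower by DESeq2: Fos (-0.88 on the log2 scale, adjusted p 0.0493) and Jun (-0.71, adjusted p 0.00109). The edgeR test called Jun (adjusted p 0.0473) and not Fos (adjusted p 0.244). The median over the 12 was -0.05 with 7 below 0, Egr1 lay at 0.06 and Nr4a1 at -0.06, and the list's summed normalized counts were 92586 to 108232 in R26-WT and 69969 to 92856 in R26-TIR1(F74G). The part of handling or stress in the values of Junb was not tested.

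**Figure D5:**
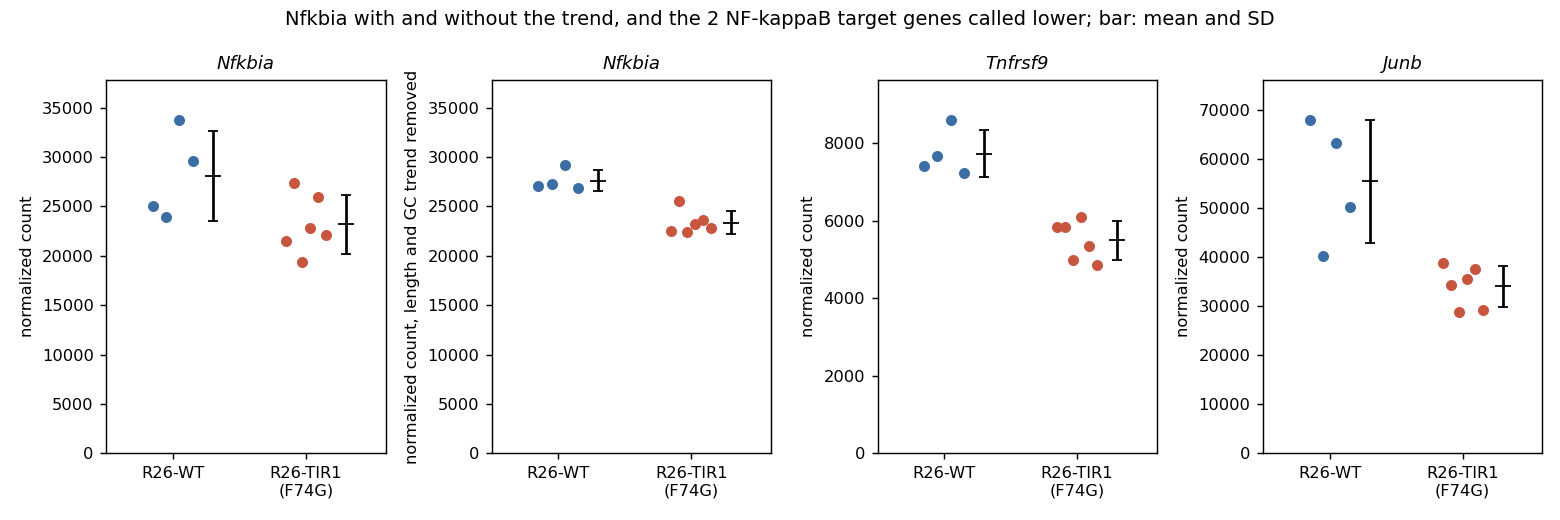
Normalized counts per library of Nfkbia with size factors only and with the length and GC trend removed (same axis), and of Tnfrsf9 and Junb, with mean and SD beside each group. Nfkbia overlaps between the groups in the left panel and does not in the next, and all R26-TIR1(F74G) points of Tnfrsf9 (4861 to 6095) lie under those of R26-WT (7247 to 8610).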

How the data were processed

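Poly(A) RNA libraries were analysed from the deposited raw counts, which the authors had not normalized. Per the file headers, the authors counted read pairs per gene name with featureCounts 2.1.1 on GENCODE M30 (GRCm39), keeping primary pairs whose mates both mapped to 1 chromosome with a quality of 30 or more, without a strand option. Antisense genes can therefore not be told apart. The labels' processing notes name Bowtie2 and the study's methods STAR. The libraries were amplified from small amounts of RNA without molecular identifiers, so the technical error can exceed the counting error.

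Testing was done on genes averaging 10 counts or more, with the Wald test of DESeq2 1.42.0 in R 4.3.3 (two-sided, a model of genotype alone, Benjamini-Hochberg adjustment, threshold 0.05), with the edgeR 4.0.16 quasi-likelihood test beside it. Adjusted p-values are over all genes tested. Normalized counts were obtained with the DESeq2 size factors, and 95% intervals from the SE of the fold change. TPM used the Length column of the files. Correlations used log2(normalized count + 1) and 100000 permutations. Trend removal used additive smooths on exon length and GC content (mgcv 1.9.3) as offsets, and the surrogate variable came from sva 3.50.0. Other alternatives were limma 3.58.1 voom with quality weights, TMM factors, 2 other count filters, a minimum fold change, and leaving out each library. Procedures were tested on simulated data. Libraries of 1 group differed by more than sampling noise in all 21 pairs (chi-square per degree of freedom 9.84 to 242), so none was taken as a library deposited again. This does not show that they are separate animals. Reference windows came from GRCm39 with GENCODE M39 canonical transcripts. Every exon of the files lay inside the sequence of the same name on all 22 chromosomes.

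The 10 genes and the lists were chosen with earlier results of these data known. Named were all 10 genes, of each pathway list every called gene or otherwise the 3 with the smallest p, and for likeness the 3 genes with the highest r for each of the 3 NF-κB genes with the smallest p. Nfkbie, Bcl3, Chuk and Ikbkb are named as further IκB family and IκB kinase genes.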

Additional observations from a re-analysis of the deposited data

Results flagged for a closer look

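In 36 sets of values (18 genes in each group), 2 held a library far from the others by Dixon's criterion, and chance alone gives about 1 in 20 (1.8 of 36). For Rela, R26-TIR1(F74G) replicate 5 had 13859 normalized counts, above the 11796 to 12480 of the other 5 libraries. For Tnip1, R26-TIR1(F74G) replicate 9 had 7764, below the 8493 to 8864 of the others.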

How the results depend on the processing

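No paired analysis was possible because no replicate number occurs in both groups. Over all genes, 284 were called by DESeq2 (229 higher and 55 lower), against 389 with the trend removed (277 and 112), 61 by edgeR, 80 by limma voom, 116 by edgeR with the trend removed (chosen after seeing the data), 743 with a surrogate variable (468 and 275), 156 when a log2 fold change of 1 or more in size was also required, and 187 to 346 when single libraries were left out (187 without R26-WT replicate 4). Of the 10 NF-κB genes, 1 was called with the trend removed and 2 with the surrogate variable, and 0 under every other alternative run, including all 10 fits without 1 library. The count of 2 pathway genes became 0 with edgeR or the fold minimum, 1 with limma voom (Junb), 3 with the trend removed (with Bcl2a1d), 8 with the surrogate variable, and 1 to 3 without single libraries (1 without R26-WT replicate 1). The 8 were Bcl2a1d, Junb, Ltb, N4bp1, Tnfrsf9, Tnip1, Traf1 and Traf2. Of 180 log2 fold changes of the 10 genes under an alternative, 163 kept their direction without a call, 3 kept it and were called, and 14 changed sign, none of them called. The changed signs were 0.050 for Nfkb2 with limma voom, -0.049 for Tnfaip3 with the surrogate variable, and otherwise fits without 1 library, which ran from -0.068 to 0.018 for Nfkb1, -0.12 to 0.11 for Nfkb2, -0.31 to 0.034 for Rel, -0.16 to 0.14 for Nfkbiz and -0.17 to 0.51 for Tnfaip3. Without 1 library the range was -0.35 to -0.17 for Nfkbia, -0.23 (without R26-WT replicate 2) to -0.056 (without R26-WT replicate 3) for Nfkbib, -0.094 to -0.018 for Nfkbid, -0.064 to -0.0087 for Rela and -0.13 to -0.083 for Relb. The 14 pairs of genes passing became 0 within R26-TIR1(F74G), where so few libraries can hardly pass and r stayed large (0.98 for Nfkb2 and Rel), 0 without 2 libraries and 4 with the trend removed. Where not stated, the cause was not tested. With 10 libraries the SE of the log2 fold changes ran from 0.076 (Relb) to 0.36 (Tnfaip3). For Tnfaip3 it was 0.27 with the trend removed and 0.11 with the surrogate variable.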
